A study of Mus musculus with 5 samples.

Results

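The 32 genes described here encode the glucose transporters, enzymes and lactate carriers of glycolysis and a set of genes of the response to low oxygen. They were taken from a list of symbols, and all 32 were matched to an Ensembl gene ID among the 49927 IDs of the deposited tables. The values are RNA-seq read counts of regulatory T cells (Tregs), T cells that restrain immune responses, sorted from C57BL/6 mice by a gate the labels do not name, with 1 library in each of 5 groups. One library came from adipose tissue of 10-month mice of genotype Med23fl/fl;Foxp3Cre and is labelled a Med23 knockout (KO), since Cre recombinase made in Foxp3-expressing cells can delete the floxed gene. Its counterpart came from adipose tissue of 10-month Foxp3Cre mice. The others came from 4-month Foxp3Cre mice, as obese adipose tissue (with HFD in the title), adipose tissue with no mention of obesity (called lean here) and lymph nodes (LN). All groups therefore carry Foxp3Cre, and the labels do not say how many mice were pooled. Without replicates there was no spread between mice to set a difference against, no test between conditions was possible, and sizes are given with 95% counting intervals in parentheses, which cover counting error only.

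Glycolysis splits glucose into pyruvate and yields ATP without oxygen. Hexokinases, glucose phosphate isomerase and phosphofructokinases prepare the sugar, aldolases cut it into trioses, and the enzymes of the triose phosphate stage carry these to pyruvate, which lactate dehydrogenase can turn into lactate for export. The transcription factor HIF-1 raises many of these genes when oxygen is scarce. In well-oxygenated cells prolyl hydroxylases of the Egln family mark its alpha subunit for destruction, so its control lies largely in the protein and its RNA need not change. Tregs are known to lean less on glycolysis than effector T cells, and adipose tissue of obese mice is known to hold poorly oxygenated areas.

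The reads behind the listed values numbered 4595046 in the library labelled Med23 KO, 9650769 in 10-month Foxp3Cre, 7496496 in obese, 8540594 in lean and 9694474 in LN Tregs. Med23 itself went against its label, with a scaled count of 13.9 in the library labelled Med23 KO against 7.02 in the 10-month Foxp3Cre library. Whole-gene counts do not show whether floxed exons were lost, so every direction for that library rests on its label. All 9 T cell and Treg markers were listed above 0 in every library. Foxp3 had 52.5 CPM (reads per 1000000 listed reads) in LN Tregs against 155 to 216 in the adipose libraries. The CD3 genes went the other way. Cd3d had 1534 CPM in LN against 408 to 747, Cd3e 319 against 142 to 213, and Cd3g 2787 against 727 to 1147. The 16 macrophage and dendritic cell markers summed to 133 CPM in the library labelled Med23 KO, 665 in 10-month Foxp3Cre, 4939 in obese, 916 in lean and 33.6 in LN Tregs. Fibroblast and mesothelial markers reached 982 CPM in lean Tregs and stayed at or under 48.9 elsewhere. Most of the 982 CPM came from Dcn (791), and the mesothelial markers Msln, Upk3b and Krt19 were listed at 0 in every library. Erythroid markers reached 8943 CPM in the library labelled Med23 KO against 0 to 1202 in the others. Of the adipocyte markers, Plin1 and Lep were listed at 0 in every library and Adipoq reached 1.87 CPM, in obese Tregs. Cidec reached 14.8 CPM in the library labelled Med23 KO, and Fabp4 294 CPM in obese Tregs. Both 4-month adipose libraries held reads of the Y-linked gene Ddx3y (560 to 562 CPM), which was listed at 0 in the others. Xist, the X-inactivation RNA of female cells, had 602 CPM in the library labelled Med23 KO, 440.4 in 10-month Foxp3Cre, 3.60 in obese, a listed 0 in lean and 228 in LN Tregs. Sex therefore differs between the 4-month adipose libraries and all others, and cannot be told apart from tissue in obese or lean against LN, nor from age in 10-month against lean Tregs. The part of these differences in the values below was not tested, and in bulk RNA fewer cells of a type and less RNA per cell cannot be told apart.

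The members did not move as 1 block in any comparison. On the scale of log2((value + 1)/(value + 1)), 4 of 30 measured members were higher and 12 lower by 2-fold or more in the library labelled Med23 KO than in 10-month Foxp3Cre Tregs, where 28.6% of all measured genes were higher and 34.9% lower. The members' median was -0.51 and that of all genes -0.15. In obese against LN Tregs 14 of 32 were higher and 6 lower, beside 41.7% and 23.7% of all genes. The split in obese Tregs depended on scaling, with 15 higher and 3 lower in CPM, beside 43.8% and 21.1% of all genes, and 11 higher and 8 lower after centring on the median of all genes, beside 31.3% for each. Among genes at 10 or more in at least 1 library 9 members were higher and 5 lower, beside 29.9% and 25.9%. In lean against LN Tregs 15 of 30 were higher and 8 lower, beside 37.6% and 32.1% of all genes, with a median of 0.91 against 0.14. As shares of the measured members these are 13.3% higher and 40.0% lower for the library labelled Med23 KO, 43.8% and 18.8% in obese and 50.0% and 26.7% in lean Tregs. The shares in obese Tregs and the lower share in the library labelled Med23 KO lie near those of all genes. A measured gene listed at 0 in 1 library of a pair is always called, because of the pseudocount. Against LN this fixed the calls of Pfkm, Slc16a1, Slc16a3, Vegfa and Egln3, and in obese Tregs also Pfkfb4 and Aldoc. In the library labelled Med23 KO it fixed those of Egln3, Ldhb, Aldoc, Vegfa, Pfkm and Eno3. The shares of all genes hold such calls too.

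Tables scaled separately were joined in CPM. In obese against lean adipose Tregs 6 of 32 members were higher and 9 lower, beside 34% and 18.6% of all genes, with a median of -0.32 against 0.20. Of the 6, Pfkfb4 and Aldoc had no row in the lean table and were taken as 0 there, which fixed their calls. A further one, Gapdh, was no longer called once reads of its copies were added. In 10-month Foxp3Cre adipose against LN Tregs 13 of 30 were higher and 4 lower, beside 34.3% and 29.8%, with a median of 0.95 against 0.09. A listed 0 in LN fixed the calls of Egln3, Slc16a1, Slc16a3, Vegfa and Aldoc. One in 10-month Foxp3Cre Tregs fixed those of Eno3 and Ddit4. In 10-month against 4-month lean adipose Tregs 11 of 31 were higher and 12 lower, beside 28.4% and 32.7%. Here the calls of Aldoc, without a row in the lean table, and of Eno3 and Ddit4, listed at 0 at 10 months, were fixed in the same way. The shares of all genes hold such calls too. The comparisons with LN share that 1 library, so their directions are not independent. The highest CPM of a member fell in 10-month Foxp3Cre Tregs for 11 members, in lean Tregs for 11, in the library labelled Med23 KO for 4, and in obese and LN Tregs for 3 each. A total of 22 members were listed above 0 in all 5 libraries.

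**Figure D1:**
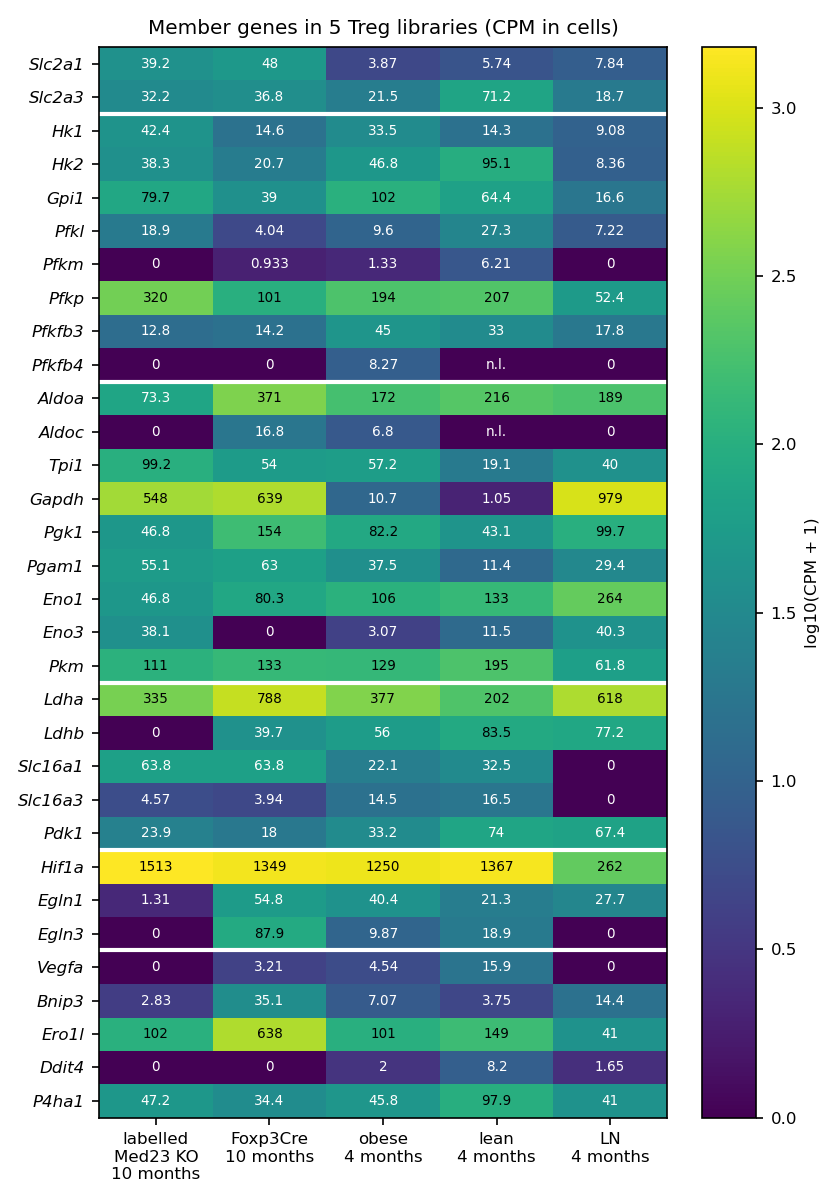
Level of the 32 members (rows, grouped by role) in the 5 libraries (columns); each cell gives the CPM and its colour log10(CPM + 1), and n.l. marks a gene not listed in that table. Hif1a is near 1250.1 to 1513 CPM in all adipose libraries against 262 in LN, and Gapdh is at 10.7 and 1.05 in the obese and lean libraries.

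Glucose enters through the transporters GLUT1, encoded by Slc2a1, and GLUT3, encoded by Slc2a3. Slc2a1 had 39.2 CPM in the library labelled Med23 KO, 47.98 in 10-month Foxp3Cre, 3.87 in obese, 5.74 in lean and 7.84 in LN Tregs. Both 10-month libraries thus stood above all 4-month libraries, and Slc2a1 was 8.36-fold (6.22 to 11.5) higher in 10-month than in lean adipose Tregs. Slc2a3 had 32.2 CPM in the library labelled Med23 KO, 36.8 in 10-month Foxp3Cre, 21.5 in obese, 71.2 in lean and 18.7 in LN Tregs. Its highest level was in lean Tregs, 3.46-fold (2.92 to 4.102) above LN on the deposited scale, while obese Tregs were 3.31-fold (2.78 to 3.97) lower than lean ones. The deposited ratio is 0.81 times the CPM ratio for the library labelled Med23 KO over Foxp3Cre, 0.888 times it for obese over LN and 0.906 times it for lean over LN. On the deposited scale the library labelled Med23 KO was 1.51-fold (1.27 to 1.81) lower in Slc2a1 and 1.41-fold (1.16 to 1.72) lower in Slc2a3 than Foxp3Cre, both short of 2-fold.

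The 8 genes of the hexose phosphate steps were mostly higher in adipose than in LN Tregs, with none at least 2-fold lower in either 4-month adipose library. Their CPM summed to 512 in the library labelled Med23 KO, 195 in 10-month Foxp3Cre, 440.2 in obese, 448 in lean and 112 in LN Tregs. In obese Tregs 7 of 8 measured genes were at least 2-fold above LN, beside 41.7% of all genes, and in lean Tregs 5 of 7, beside 37.6%. In 10-month Foxp3Cre Tregs 2 of 6 were, close to the 34.3% of all genes. Among these calls, Pfkm in obese and lean Tregs and Pfkfb4 in obese Tregs were listed at 0 in LN. For them a value of 1 or more in adipose Tregs fixed the call. Hexokinases trap glucose as glucose 6-phosphate. Hk2, the inducible hexokinase, had 38.3 CPM in the library labelled Med23 KO, 20.7 in 10-month Foxp3Cre, 46.8 in obese, 95.1 in lean and 8.36 in LN Tregs. It was 10.3-fold (8.199 to 13.1) higher in lean and 4.98-fold (3.900 to 6.42) higher in obese than in LN Tregs, and 4.59-fold (3.93 to 5.38) lower in 10-month than in lean adipose Tregs by CPM. Hk1, the housekeeping hexokinase, had 42.4 CPM in the library labelled Med23 KO, 14.6 in 10-month Foxp3Cre, 33.5 in obese, 14.3 in lean and 9.08 in LN Tregs. Its highest levels were in the library labelled Med23 KO, 2.35-fold (1.88 to 2.94) above Foxp3Cre, and in obese Tregs, 2.34-fold (1.88 to 2.93) above lean.

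Gpi1, glucose phosphate isomerase, had 79.7 CPM in the library labelled Med23 KO, 38.96 in 10-month Foxp3Cre, 102 in obese, 64.4 in lean and 16.6 in LN Tregs. It was 5.46-fold (4.600 to 6.51) higher in obese and 3.51-fold (2.94 to 4.22) higher in lean than in LN Tregs, and 1.66-fold (1.43 to 1.92) higher in the library labelled Med23 KO than in Foxp3Cre. Phosphofructokinase commits the sugar to glycolysis and has platelet-, liver- and muscle-type subunits. Pfkp, the platelet type, had 319.7 CPM in the library labelled Med23 KO, 101 in 10-month Foxp3Cre, 194 in obese, 207 in lean and 52.4 in LN Tregs. Every adipose library was above LN in Pfkp, by 1.93-fold (1.74 to 2.16) in 10-month Foxp3Cre Tregs, and the library labelled Med23 KO was 2.56-fold (2.36 to 2.77) above Foxp3Cre. Pfkl, the liver type, had 18.9 CPM in the library labelled Med23 KO, 4.04 in 10-month Foxp3Cre, 9.604 in obese, 27.3 in lean and 7.22 in LN Tregs. The library labelled Med23 KO was 3.79-fold (2.57 to 5.69) above Foxp3Cre in Pfkl, lean was 3.42-fold (2.61 to 4.54) above LN, and obese was 2.84-fold (2.17 to 3.75) below lean.

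Pfkm, the muscle type, was low, with a listed 0 in the library labelled Med23 KO, 0.933 CPM in 10-month Foxp3Cre, 1.33 in obese, 6.21 in lean and a listed 0 in LN Tregs. The authors' deposited table implied 0 reads of Pfkm in LN, so lean Tregs were at least 18.2-fold higher at a floor of 3 reads in the LN library. The authors' deposited table of 10-month libraries implied 3 reads in the library labelled Med23 KO, which made Pfkm 1.76-fold (0.4401 to 10.1) lower than in Foxp3Cre, so the 2-fold call there did not hold in reads. Pfkfb3 and Pfkfb4 make fructose 2,6-bisphosphate, the activator of phosphofructokinase. Pfkfb3 had 12.8 CPM in the library labelled Med23 KO, 14.2 in 10-month Foxp3Cre, 44.95 in obese, 33.02 in lean and 17.8 in LN Tregs, and obese Tregs were 2.24-fold (1.86 to 2.704) above LN. Pfkfb4 was listed above 0 in obese Tregs alone, at 8.27 CPM, and had no row in the lean table.

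The 9 genes of the triose phosphate steps went the other way in lean Tregs, where 6 of 8 measured genes were at least 2-fold below LN, beside 32.1% of all genes, and only Pkm was above it by that much. Without Gapdh, whose values are uncertain, 5 of 7 were lower there. Other shares lay nearer to those of all genes. In the library labelled Med23 KO 4 of 9 were lower than in Foxp3Cre, beside 34.9%, in obese Tregs 3 of 9 were lower than in LN, beside 23.7%, and 4 of 9 were higher in obese than in lean Tregs, beside 34%. Those higher in obese Tregs include Aldoc, taken as 0 in lean Tregs for want of a row, and the uncertain Gapdh. Without Gapdh their CPM summed to 470.1 in the library labelled Med23 KO, 872 in 10-month Foxp3Cre, 595 in obese, 629 in lean and 724 in LN Tregs. Aldolase cuts fructose 1,6-bisphosphate into trioses. Aldoa, its main form outside liver and brain, had 73.3 CPM in the library labelled Med23 KO, 371 in 10-month Foxp3Cre, 172 in obese, 216 in lean and 189 in LN Tregs. Lean and LN Tregs were close in Aldoa, at 1.04-fold (0.971 to 1.11), while the library labelled Med23 KO was 6.24-fold (5.58 to 7.003) lower than Foxp3Cre. Aldoc, the brain-type aldolase, had a listed 0 in the library labelled Med23 KO, 16.8 CPM in 10-month Foxp3Cre, 6.803 in obese and a listed 0 in LN Tregs, with no row in the lean table. The authors' deposited table implied 0 reads of Aldoc in the library labelled Med23 KO, at least 31.7-fold lower than in Foxp3Cre at the 3-read floor.

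Tpi1, triose phosphate isomerase, had 99.2 CPM in the library labelled Med23 KO, 53.98 in 10-month Foxp3Cre, 57.2 in obese, 19.1 in lean and 40.02 in LN Tregs. Lean Tregs were 2.31-fold (1.92 to 2.796) below LN, and obese Tregs were 2.998-fold (2.498 to 3.61) above lean. Pgk1, phosphoglycerate kinase, had 46.8 CPM in the library labelled Med23 KO, 154 in 10-month Foxp3Cre, 82.2 in obese, 43.1 in lean and 99.7 in LN Tregs. It was 4.06-fold (3.52 to 4.71) lower in the library labelled Med23 KO than in Foxp3Cre, 2.55-fold (2.26 to 2.89) lower in lean than in LN, and 3.57-fold (3.19 to 4.02) higher in 10-month than in lean adipose Tregs. Pgam1, phosphoglycerate mutase, had 55.1 CPM in the library labelled Med23 KO, 63.00 in 10-month Foxp3Cre, 37.5 in obese, 11.4 in lean and 29.4 in LN Tregs. Lean Tregs were 2.86-fold (2.26 to 3.63) below LN in Pgam1, whereas 10-month Foxp3Cre Tregs were 2.14-fold (1.86 to 2.48) above LN and obese Tregs 3.300-fold (2.61 to 4.202) above lean.

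Enolase, the next enzyme, is encoded by Eno1 in most tissues and by Eno3 in muscle. Eno1 had 46.8 CPM in the library labelled Med23 KO, 80.3 in 10-month Foxp3Cre, 106 in obese, 133 in lean and 264 in LN Tregs. It was highest in LN, 2.798-fold (2.58 to 3.03) lower in obese and 2.196-fold (2.05 to 2.36) lower in lean Tregs, where the call ended once reads of its copies were added (1.64-fold), and 2.12-fold (1.82 to 2.48) lower in the library labelled Med23 KO than in Foxp3Cre. Eno3 had 38.1 CPM in the library labelled Med23 KO, a listed 0 in 10-month Foxp3Cre, 3.07 in obese, 11.5 in lean and 40.3 in LN Tregs. The authors' deposited table implied 0 reads of Eno3 in 10-month Foxp3Cre Tregs, so the library labelled Med23 KO was at least 99.2-fold higher at the 3-read floor. Obese Tregs were 14.8-fold (9.72 to 23.6) and lean Tregs 3.88-fold (3.101 to 4.89) below LN in Eno3. Pkm, the pyruvate kinase gene that closes the pathway, had 111 CPM in the library labelled Med23 KO, 133 in 10-month Foxp3Cre, 129 in obese, 195 in lean and 61.8 in LN Tregs. All adipose libraries were above LN in Pkm, lean Tregs 2.87-fold (2.61 to 3.15) and obese Tregs 1.86-fold (1.68 to 2.06).

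Gapdh, the dehydrogenase between aldolase and phosphoglycerate kinase, had the widest range of the members listed above 0 in all libraries. It had 548 CPM in the library labelled Med23 KO, 639 in 10-month Foxp3Cre, 10.7 in obese, 1.05 in lean and 979 in LN Tregs. It was thus 1026-fold (540.0 to 2244) lower in lean and 103-fold (82.9 to 130.4) lower in obese than in LN Tregs, but only 1.53-fold lower in 10-month Foxp3Cre Tregs by CPM. Gapdh has 177 genes or pseudogenes in the mouse annotation with transcripts at least 90% identical over 300 bases or more, of which 173 had an ID in the tables. These copies summed to 70.3 CPM in the library labelled Med23 KO, 5.91 in 10-month Foxp3Cre, 40.6 in obese, 31.0 in lean and 2.58 in LN Tregs. With these listed reads added, Gapdh was 21.6-fold lower in obese and 33.8-fold lower in lean than in LN Tregs, and its difference between obese and lean Tregs was 1.60-fold, against 10.1-fold without them. Copies under 1 are listed as 0, and the sources used here do not say how reads that match several copies were counted or dropped. Their part in the low Gapdh values was therefore not tested, so the values of Gapdh are uncertain and the sums above are given without it.

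**Figure D2:**
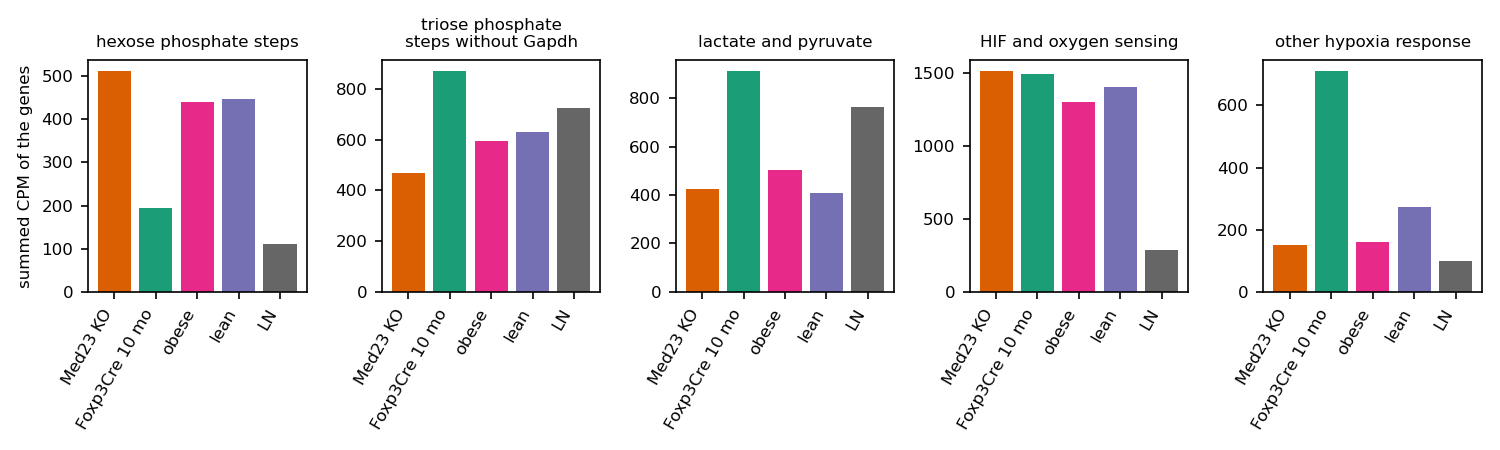
Summed CPM (bars, from 0, without error bars because each group is 1 library) of the members of 5 role groups in the 5 libraries. Hexose phosphate genes are at 512, 195, 440.2, 448 and 112 CPM from left to right, and the other hypoxia response genes (Vegfa, Bnip3, Ero1l, Ddit4, P4ha1) peak at 711 in 10-month Foxp3Cre Tregs.

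Lactate dehydrogenase subunits A and B, encoded by Ldha and Ldhb, interconvert pyruvate and lactate. Ldha had 335 CPM in the library labelled Med23 KO, 788 in 10-month Foxp3Cre, 377 in obese, 202 in lean and 618 in LN Tregs. It was 2.91-fold (2.75 to 3.07) lower in the library labelled Med23 KO than in Foxp3Cre, 1.85-fold (1.76 to 1.93) lower in obese and 3.37-fold (3.196 to 3.56) lower in lean than in LN Tregs. In 10-month Foxp3Cre Tregs it was 1.27-fold (1.23 to 1.32) above LN and 3.89-fold (3.69 to 4.104) above lean adipose. Ldhb had a listed 0 in the library labelled Med23 KO, 39.7 CPM in 10-month Foxp3Cre, 56.03 in obese, 83.5 in lean and 77.2 in LN Tregs. The authors' deposited table implied 4 reads of Ldhb in the library labelled Med23 KO, 56.3-fold (21.8 to 208) lower than in Foxp3Cre. Lean and LN Tregs were close in Ldhb, at 0.981-fold (0.884 to 1.09).

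Slc16a1 and Slc16a3 encode the lactate carriers MCT1 and MCT4. Slc16a1 had 63.8 CPM in the library labelled Med23 KO, 63.8 in 10-month Foxp3Cre, 22.1 in obese, 32.5 in lean and a listed 0 in LN Tregs. From 6 reads in LN implied by the authors' deposited table, lean Tregs were 47.7-fold (21.6 to 131) and obese Tregs 31.8-fold (14.3 to 87.9) higher. Slc16a3 had 4.57 CPM in the library labelled Med23 KO, 3.94 in 10-month Foxp3Cre, 14.5 in obese, 16.5 in lean and a listed 0 in LN Tregs. With 0 reads in LN implied by the authors' deposited table, Slc16a3 was at least 48.3-fold higher in lean and at least 41.7-fold higher in obese Tregs at the 3-read floor. Both carriers were therefore read in every adipose library and hardly in LN, with MCT1 RNA highest at 10 months and MCT4 RNA highest at 4 months. Pdk1, a kinase that keeps pyruvate out of the mitochondrial dehydrogenase, had 23.9 CPM in the library labelled Med23 KO, 18.03 in 10-month Foxp3Cre, 33.2 in obese, 74.00 in lean and 67.4 in LN Tregs. Obese Tregs were 2.28-fold (1.97 to 2.65) below LN, and lean Tregs were level with LN at 0.996-fold (0.891 to 1.11).

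Hif1a, the oxygen-regulated subunit of HIF-1, had 1513 CPM in the library labelled Med23 KO, 1349 in 10-month Foxp3Cre, 1250.1 in obese, 1367 in lean and 262 in LN Tregs. The adipose libraries lay within 1250.1 to 1513 CPM, and lean Tregs were 4.73-fold (4.53 to 4.94), obese Tregs 4.24-fold (4.06 to 4.43) and 10-month Foxp3Cre Tregs 5.15-fold (4.94 to 5.38) higher than LN. The macrophage and dendritic cell marker sum was also above LN in every adipose library, and its part in Hif1a was not tested. The 9 adipocyte markers summed to 32.6 to 337 CPM in adipose libraries against 0 in LN. In the Foxp3Cre adipose libraries most came from Fabp4 (294 in obese) and from Pparg (212 in 10-month Foxp3Cre), which adipose Tregs are known to express. In the library labelled Med23 KO, Cidec (14.8) and Fabp4 (13.5) were the largest, and Pparg was listed at 0. Lipe had 4.35 in that library, 4.87 in 10-month Foxp3Cre and 6.67 in obese Tregs. Plin1, Lep and Cfd were listed at 0 throughout. The part of these in Hif1a was not tested. The library labelled Med23 KO was 1.101-fold (1.07 to 1.13) lower than Foxp3Cre on the deposited scale and higher in CPM, so its direction depends on the scaling. Per kilobase of exon merged over all annotated transcripts, Hif1a was also the highest member in the library labelled Med23 KO (257 CPM per kilobase), in obese (212) and in lean Tregs (232). Ldha led in 10-month Foxp3Cre (238) and Gapdh in LN Tregs (237). These ranks depend on the merged lengths, 5896 bases for Hif1a, 3310 for Ldha and 4133 for Gapdh. Which transcripts these cells use is not known. An antisense gene, Gm15283, overlaps 330 bases of Hif1a exons and had 11.9 to 47.0 CPM.

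Egln1 and Egln3 encode the prolyl hydroxylases PHD2 and PHD3, which are themselves known HIF targets. Egln1 had 1.31 CPM in the library labelled Med23 KO, 54.8 in 10-month Foxp3Cre, 40.4 in obese, 21.3 in lean and 27.7 in LN Tregs. It was 51.8-fold (23.7 to 142) lower in the library labelled Med23 KO than in Foxp3Cre, where it was 2.57-fold (2.17 to 3.06) above lean adipose. Egln3 had a listed 0 in the library labelled Med23 KO, 87.9 CPM in 10-month Foxp3Cre, 9.87 in obese, 18.9 in lean and a listed 0 in LN Tregs. The authors' deposited table implied 0 reads of Egln3 in the library labelled Med23 KO, at least 166-fold lower than in Foxp3Cre at the 3-read floor. From 3 reads in LN implied by the authors' deposited table, Egln3 was 284-fold (96.8 to 1379.6) higher in 10-month Foxp3Cre, 28.3-fold (9.33 to 141) higher in obese and 55.2-fold (18.6 to 271) higher in lean Tregs. Egln3 was thus read in the 3 Foxp3Cre adipose libraries and at or near no reads in the remaining libraries.

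**Figure D3:**
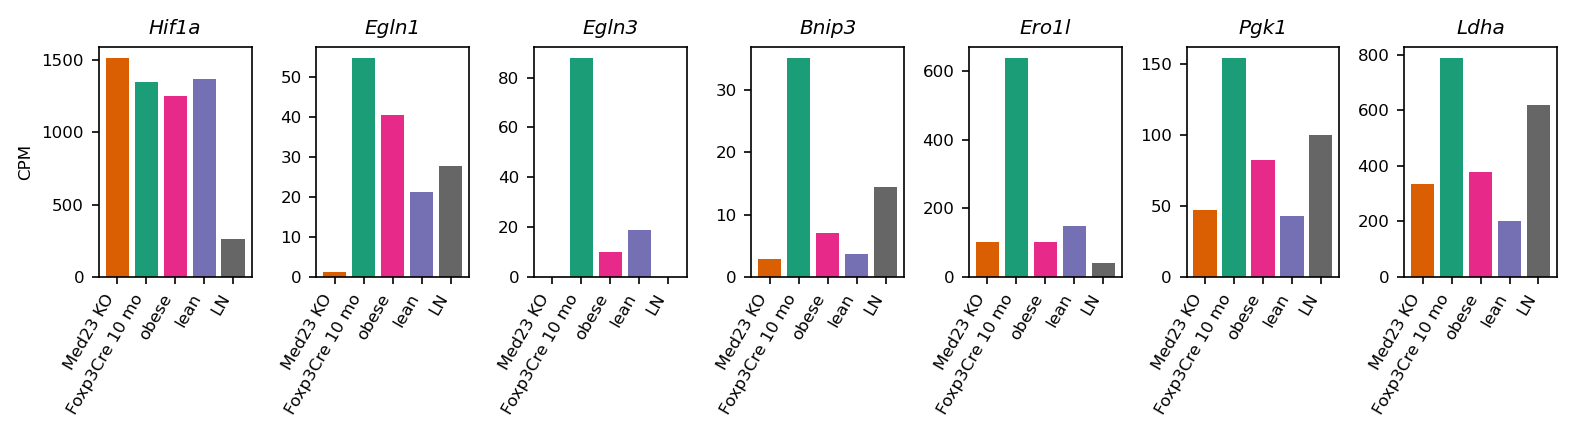
CPM (bars, from 0, 1 library each) of Hif1a, both prolyl hydroxylase genes and 4 other genes known as HIF targets, chosen after their values were seen as members lower in the library labelled Med23 KO. Hif1a is similar in all adipose libraries, whereas Egln1, Egln3, Bnip3, Ero1l, Pgk1 and Ldha are each highest in 10-month Foxp3Cre Tregs and lower in the library labelled Med23 KO, for example Ero1l at 102 against 638 CPM.

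Among the other hypoxia response members, Ero1l, an endoplasmic reticulum oxidase that helps form disulphide bonds, had 102 CPM in the library labelled Med23 KO, 638 in 10-month Foxp3Cre, 101 in obese, 149 in lean and 40.95 in LN Tregs. It was 7.72-fold (7.02 to 8.49) lower in the library labelled Med23 KO than in Foxp3Cre, and 15.6-fold (14.1 to 17.3) higher in 10-month Foxp3Cre than in LN Tregs. Obese Tregs were 2.18-fold (1.93 to 2.47) and lean Tregs 3.29-fold (2.94 to 3.69) above LN. Bnip3, a mitochondrial protein of mitophagy, had 2.83 CPM in the library labelled Med23 KO, 35.1 in 10-month Foxp3Cre, 7.07 in obese, 3.75 in lean and 14.4 in LN Tregs. It was 15.3-fold (8.84 to 29.1) lower in the library labelled Med23 KO than in Foxp3Cre, and 2.299-fold (1.66 to 3.22) lower in obese and 4.25-fold (2.88 to 6.46) lower in lean than in LN Tregs. In 10-month Foxp3Cre Tregs Bnip3 was instead 2.43-fold (1.99 to 2.98) above LN.

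Vegfa, the angiogenic growth factor, had a listed 0 in the library labelled Med23 KO, 3.21 CPM in 10-month Foxp3Cre, 4.54 in obese, 15.9 in lean and a listed 0 in LN Tregs. With 0 reads in LN implied by the authors' deposited table, Vegfa was at least 13.02-fold higher in obese and at least 46.6-fold higher in lean Tregs at the 3-read floor. The authors' deposited table of 10-month libraries implied 3 Vegfa reads in the library labelled Med23 KO, 6.07-fold (1.89 to 31.1) lower than in Foxp3Cre. Ddit4, an inhibitor of the growth kinase mTORC1, was low everywhere, with 2.001 CPM in obese, 8.196 in lean and 1.65 in LN Tregs, and was listed at 0 in both 10-month libraries. P4ha1, a collagen prolyl hydroxylase, had 47.2 CPM in the library labelled Med23 KO, 34.4 in 10-month Foxp3Cre, 45.8 in obese, 97.9 in lean and 40.95 in LN Tregs. Lean Tregs were 2.17-fold (1.92 to 2.45) above LN in P4ha1, obese Tregs were level with LN at 0.993-fold (0.857 to 1.15), and the library labelled Med23 KO was at 1.11-fold (0.933 to 1.32) of Foxp3Cre.

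The 12 members lower in the library labelled Med23 KO, 40.0% of those measured beside 34.9% of all genes and so near the background, included both prolyl hydroxylase genes, Bnip3, Ero1l and Vegfa of the hypoxia response, Aldoa, Aldoc, Pgk1 and Eno1 of the triose stage, Ldha and Ldhb, and Pfkm, whose call rested on 3 reads. Vegfa also had 3 reads there, and its interval (1.89 to 31.1) reached below 2-fold. The 4 higher members of that library, 13.3% beside 28.6%, were Hk1, Pfkl, Pfkp and Eno3. Some other members known as HIF targets were higher or near Foxp3Cre, with Hk2 at 1.497-fold (1.22 to 1.84), P4ha1 at 1.11-fold (0.933 to 1.32), Pdk1 at 1.08-fold (0.839 to 1.37) and Slc16a3 at 0.9401-fold (0.524 to 1.64) of it. Further members were lower but short of 2-fold, namely Slc2a1 at 0.661-fold (0.554 to 0.787), Pkm at 0.677-fold (0.610 to 0.751), Gapdh at 0.694-fold (0.663 to 0.727), Pgam1 at 0.708-fold (0.609 to 0.821) and Slc2a3 at 0.709-fold (0.581 to 0.862). The hypoxia response members thus did not share 1 direction. Hif1a was not among either, with a scaled count of 1361 in the library labelled Med23 KO against 1497 in Foxp3Cre. Beside this, the 2 libraries differed in Foxp3 (139.5 against 206 scaled counts), in erythroid markers (8943 against 1202 CPM, 5 against 4 of 6 genes listed) and in macrophage and dendritic cell markers (133 against 665 CPM, 8 against 11 of 16 genes listed). The part of these in the lower values was not tested. With 1 sample on each side, the genotype and any other difference between the mice or preparations cannot be told apart.

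**Figure D4:**
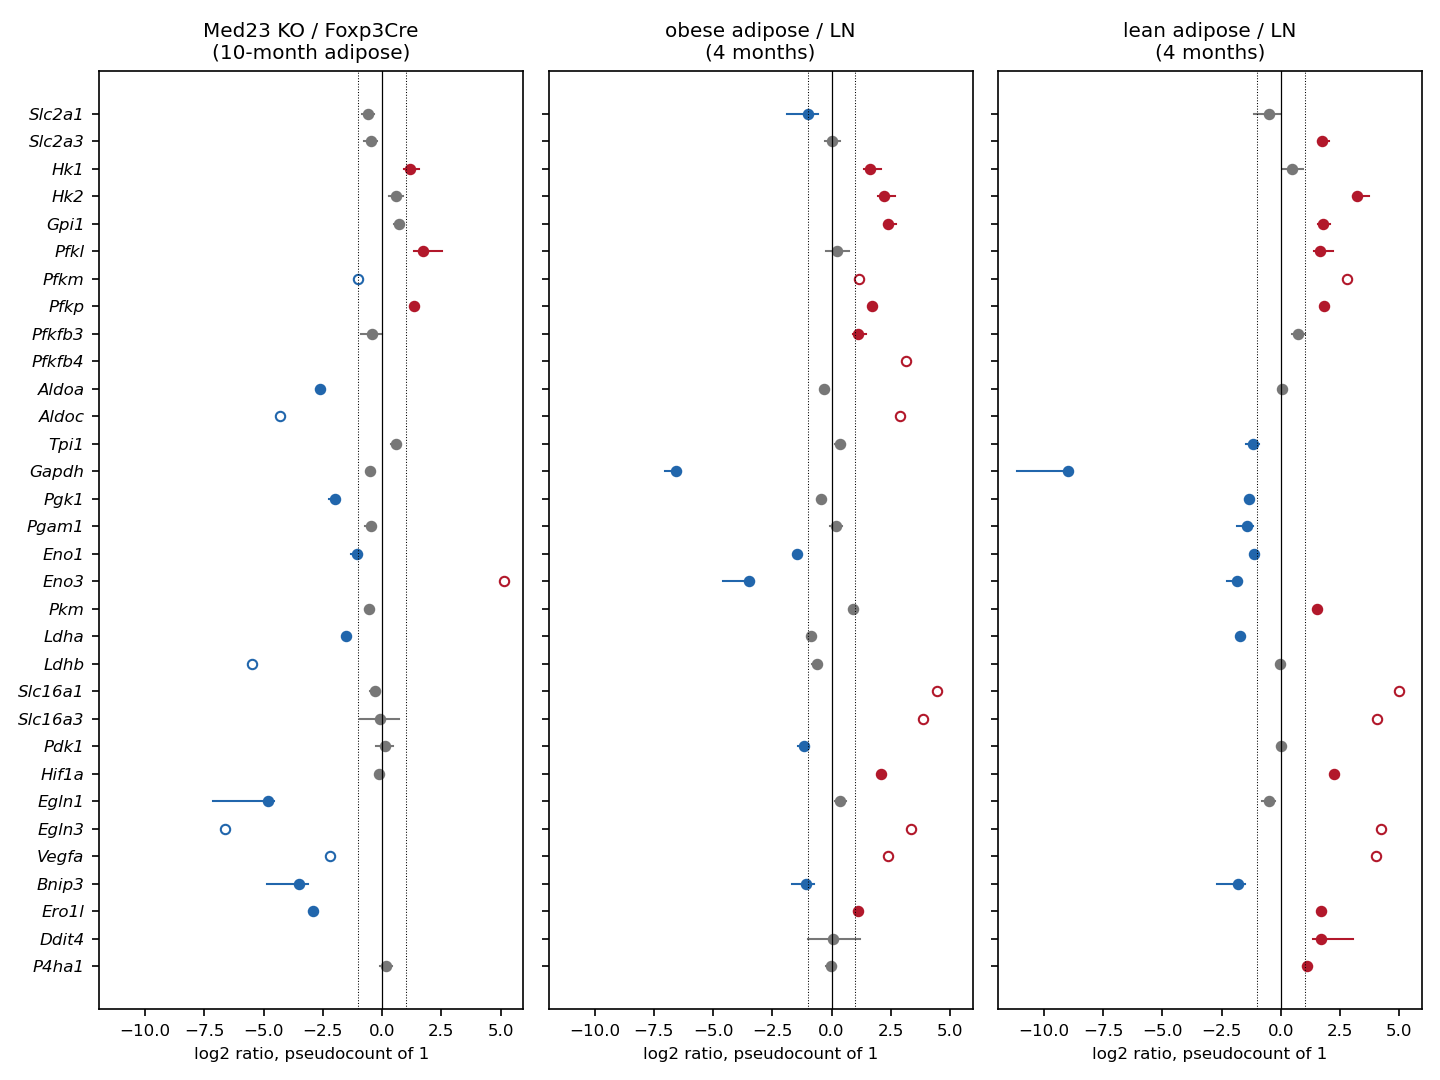
Log2 ratio of each member on the deposited scale with a pseudocount of 1 (points) and the 95% counting interval of the fold without pseudocount (lines), for the library labelled Med23 KO over Foxp3Cre, obese over LN and lean over LN. Red and blue mark ratios at least 2-fold higher and lower, dotted lines the 2-fold threshold, and open points, without interval, members listed at 0 in 1 library. Egln3 is at -6.62 in the first panel, Eno3 at 5.14, and Gapdh at -9.01 in the last.

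HIF-1 binds DNA at a hypoxia response element whose core is ACGTG or GCGTG. RefSeq promoters of GRCm38.p6 were matched for 31 members, all but Slc2a3. The 250 bases before the first listed start of each gene were searched for both 5-letter words on both strands. Any other start of a gene was not searched, and which start these cells use is not known. CACGTG holds ACGTG once on each strand, overlapping. ACGTG occurred before 16 of 31 members (51.6%), beside 16.6% of 27025 promoters and 21.3% of the 10991 promoters of genes with at least 1 CPM in any library. GCGTG occurred before 54.8% of members, beside 28.2% and 43.1%. The list of members includes genes known as HIF targets, so higher shares may come from how it was made and are no result of these libraries. Of the 12 members lower in the library labelled Med23 KO, 7 held ACGTG (58.3%), which is close to the share of all members. The stretches below, read 5′ to 3′ in the direction of the gene, belong to the genes of the plot of HIF targets, which were picked as lower in that library, and, as an example without a match, to Aldoa. Capitals mark every ACGTG or GCGTG of either strand.
Egln3 (chr12:54203875-54204124, - strand): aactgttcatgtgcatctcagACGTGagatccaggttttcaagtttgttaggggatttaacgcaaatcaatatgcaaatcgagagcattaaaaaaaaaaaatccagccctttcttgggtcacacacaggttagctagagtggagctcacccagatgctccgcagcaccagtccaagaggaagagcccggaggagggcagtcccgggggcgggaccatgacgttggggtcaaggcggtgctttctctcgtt
Egln1 (chr8:124949255-124949504, - strand): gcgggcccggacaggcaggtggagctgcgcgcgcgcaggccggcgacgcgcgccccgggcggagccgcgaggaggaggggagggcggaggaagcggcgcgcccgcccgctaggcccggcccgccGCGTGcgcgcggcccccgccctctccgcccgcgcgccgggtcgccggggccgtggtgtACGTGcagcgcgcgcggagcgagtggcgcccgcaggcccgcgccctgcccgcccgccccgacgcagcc
Bnip3 (chr7:138909507-138909756, - strand): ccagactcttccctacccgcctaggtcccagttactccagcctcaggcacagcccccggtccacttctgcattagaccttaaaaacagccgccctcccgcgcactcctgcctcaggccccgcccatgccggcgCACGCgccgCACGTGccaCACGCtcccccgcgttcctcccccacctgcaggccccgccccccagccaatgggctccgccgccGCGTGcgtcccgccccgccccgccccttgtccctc
Ero1l (chr14:45318573-45318822, - strand): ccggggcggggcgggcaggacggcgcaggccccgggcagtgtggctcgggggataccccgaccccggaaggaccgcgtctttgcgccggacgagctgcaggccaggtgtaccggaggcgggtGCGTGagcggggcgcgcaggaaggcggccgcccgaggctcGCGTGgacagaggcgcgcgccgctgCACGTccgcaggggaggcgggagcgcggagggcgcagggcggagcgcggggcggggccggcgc
Pgk1 (chrX:106186850-106187099, + strand): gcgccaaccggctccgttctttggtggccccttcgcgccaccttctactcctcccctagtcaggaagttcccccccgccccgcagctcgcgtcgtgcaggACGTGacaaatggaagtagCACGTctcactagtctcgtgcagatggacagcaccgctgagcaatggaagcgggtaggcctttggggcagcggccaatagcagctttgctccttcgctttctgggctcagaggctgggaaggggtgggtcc
Ldha (chr7:46845554-46845803, + strand): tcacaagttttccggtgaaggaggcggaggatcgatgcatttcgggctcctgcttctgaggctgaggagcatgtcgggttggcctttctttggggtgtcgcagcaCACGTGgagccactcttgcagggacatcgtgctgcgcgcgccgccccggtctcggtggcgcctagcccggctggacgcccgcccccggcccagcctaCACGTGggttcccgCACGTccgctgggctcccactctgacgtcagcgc
Aldoa (chr7:126800448-126800697, - strand): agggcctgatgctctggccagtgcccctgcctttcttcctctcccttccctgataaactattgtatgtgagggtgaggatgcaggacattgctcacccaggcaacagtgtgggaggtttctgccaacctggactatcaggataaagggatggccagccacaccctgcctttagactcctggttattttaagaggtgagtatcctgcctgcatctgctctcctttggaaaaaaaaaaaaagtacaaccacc

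Ldha held 5 and Bnip3 also 5 matches, counting each strand, Ero1l 3, Egln1 and Pgk1 2 each, and Egln3 1, at 229 bases before its start. Hif1a, whose RNA was similar in all adipose libraries, held 3 matches as well. Among members higher in the library labelled Med23 KO, Pfkp held 3 matches, Pfkl and Eno3 1 each, and Hk1 none. A match is a string of letters and not a site of binding, and no match says only that these letters are not in this window.

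Isozyme pairs were compared within each library as ratios of CPM per kilobase of exon, so that both genes share the library. Exon length was merged over all annotated transcripts of a gene, for example 5379 bases for Eno1 and 1739 for Eno3. Length cancels when a ratio is compared between libraries, but which gene of a pair is higher depends on it. Slc2a3 stood at 0.398 (0.318 to 0.497) times Slc2a1 in the library labelled Med23 KO and 0.371 (0.322 to 0.427) times in 10-month Foxp3Cre, against 2.69 (1.801 to 4.14) in obese, 6.005 (4.48 to 8.21) in lean and 1.15 (0.877 to 1.53) in LN Tregs. GLUT1 RNA was thus the more abundant per length at 10 months and GLUT3 RNA in 4-month adipose Tregs. Hk2 stood at 1.29 (1.05 to 1.59) times Hk1 in the library labelled Med23 KO, 2.03 (1.63 to 2.53) in 10-month Foxp3Cre, 1.999 (1.695 to 2.36) in obese, 9.51 (7.86 to 11.6) in lean and 1.32 (0.961 to 1.800) in LN Tregs. Lean Tregs alone had a counting interval of this ratio wholly above those of the other libraries. Pfkp exceeded Pfkl in every library, by 12.5 (9.07 to 17.7) times in 10-month Foxp3Cre and by 3.61 (2.81 to 4.71) times in LN Tregs, the highest and the lowest of these ratios.

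Ldhb stood at 0.106 (0.0956 to 0.118) times Ldha in 10-month Foxp3Cre, 0.313 (0.282 to 0.347) in obese, 0.8699 (0.796 to 0.9498) in lean and 0.263 (0.244 to 0.284) in LN Tregs, and Ldhb was listed at 0 in the library labelled Med23 KO. The subunits were therefore nearest to each other in lean Tregs. Eno3 stood at 2.52 (2.05 to 3.09) times Eno1 in the library labelled Med23 KO, 0.0894 (0.0563 to 0.135) in obese, 0.268 (0.215 to 0.329) in lean and 0.473 (0.424 to 0.526) in LN Tregs, and was listed at 0 in 10-month Foxp3Cre. Per length, Eno3 exceeded Eno1 only in the library labelled Med23 KO. In CPM it was lower there, at 38.1 against 46.8 for Eno1, so this order rests on the exon lengths used. Slc16a3 stood at 0.0597 (0.0364 to 0.0929) times Slc16a1 in the library labelled Med23 KO and at 0.0513 (0.03598 to 0.0713) times in 10-month Foxp3Cre, against 0.546 (0.425 to 0.7000) in obese and 0.422 (0.342 to 0.519) in lean Tregs.

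**Figure D5:**
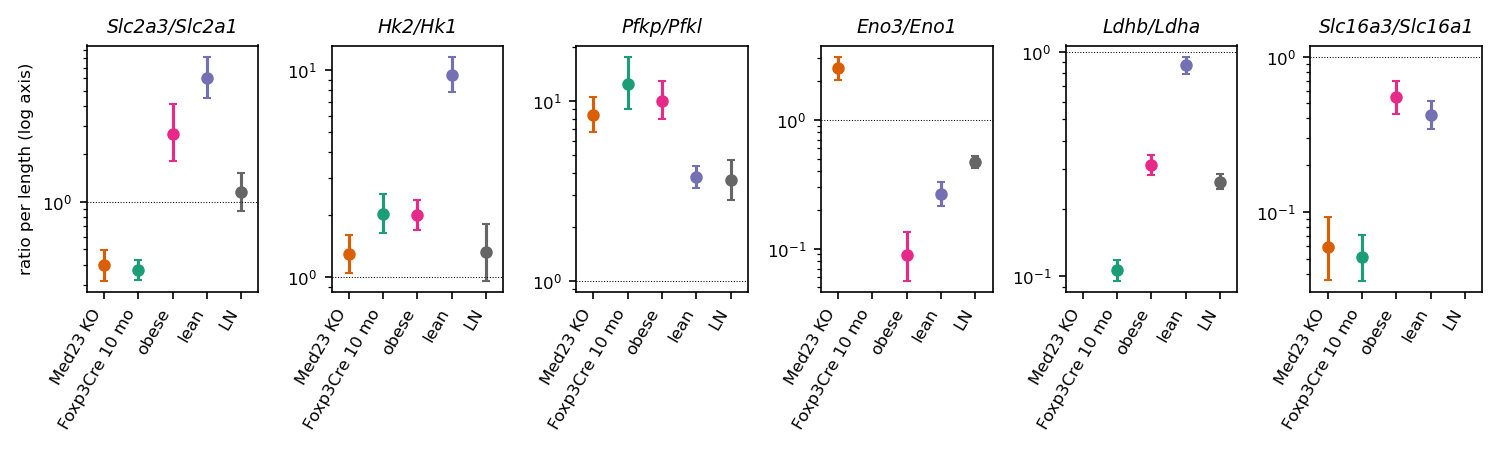
Ratio of the first to the second gene of 6 isozyme pairs per kilobase of exon (points, log axis, each panel on its own range) with the 95% counting interval (bars) in each library; the dotted line marks equality, and a library in which either gene was listed at 0 has no point. The Slc2a3/Slc2a1 ratio is 0.398 and 0.371 in the 10-month libraries against 2.69 and 6.00 in obese and lean Tregs.

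Some members share sequence or exons with other listed genes, so their reads may have been divided. Eno1 has a copy, Eno1b, with a transcript 99.5% identical over 1736 bases, which had 6.09 CPM in the library labelled Med23 KO, 14.6 in 10-month Foxp3Cre, 5.34 in obese, 25.5 in lean and 1.44 in LN Tregs. A pseudogene, Gm4735, is 99.6% identical and had 3.11 CPM in 10-month Foxp3Cre, 4.54 in obese and 20.8 in lean Tregs, and a listed 0 elsewhere. With the listed reads of its copies, Eno1 was 2.57-fold lower in obese but only 1.64-fold lower in lean than in LN Tregs, so its 2-fold call in lean Tregs rests on leaving them out. Pfkp shares 748 exon bases on the opposite strand with Pitrm1, which had 30.3 CPM in the library labelled Med23 KO, 58.2 in 10-month Foxp3Cre, 23.6 in obese, 16.3 in lean and 14.5 in LN Tregs. In all, 11 members share exon bases with another listed gene, 10 of them with a gene on the opposite strand. Beside Hif1a, Pfkp and the low Pfkm, these partners reached 23.3 CPM at Gapdh (Iffo1, 68 bases), 8.66 at Pkm (Gm49759, 767 bases on the same strand) and 5.07 at Hk1 (Hk1os, 157 bases). Copies of Ldha (11 in the tables) and Aldoa (6) were listed at 0 in all libraries.

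Genes of the same pathways outside the 32 were summarised from lists made with them. Of 26 measured other hypoxia response genes, 2 were higher and 13 lower by 2-fold or more in the library labelled Med23 KO than in 10-month Foxp3Cre Tregs (median -1.19, against -0.15 over all genes), beside 28.6% and 34.9% of all genes. The lowest were Ier3, an early survival gene, listed at 0 against 235 scaled counts, and Fam162a, 50.7-fold (24.5 to 127) lower. In 10-month Foxp3Cre Tregs 15 of 26 such genes were higher and 7 lower than in LN (median 1.59), beside 34.3% and 29.8% of all genes. In obese Tregs 15 of 26 were higher and 4 lower (median 1.48), beside 41.7% and 23.7%, and in lean Tregs 15 of 27 and 4 (median 1.56), beside 37.6% and 32.1%. Hilpda, a HIF target that inhibits lipid droplet breakdown, was 30.1-fold (26.8 to 33.97) higher in obese than in LN Tregs and 87.1-fold (77.6 to 98.03) higher in 10-month Foxp3Cre Tregs, at 2632 against 30.2 CPM. Plod2, a collagen lysyl hydroxylase, had 67.2 scaled counts in lean Tregs and was listed at 0 in LN. Car9, a carbonic anhydrase and HIF target, went the other way, listed at 0 in obese, lean and 10-month Foxp3Cre Tregs against 14.03 CPM in LN. In the library labelled Med23 KO it had 14.9 scaled counts against a listed 0 in 10-month Foxp3Cre, and so was 1 of the 2 genes higher there.

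Of 14 measured HIF regulators, 3 were higher and 4 lower in the library labelled Med23 KO than in Foxp3Cre, beside 28.6% and 34.9% of all genes. Siah2 and Vhl, ubiquitin ligase genes of this pathway, were listed at 0 in it against 80.4 and 16.9 scaled counts, and Epas1, encoding HIF-2 alpha, had 29.7 against 0. In obese Tregs 4 of 14 were higher and 3 lower than in LN, beside 41.7% and 23.7%, and in lean Tregs 5 of 14 and 2, beside 37.6% and 32.1%. These regulators were thus called about as often as all genes or less. Vhl was 3.19-fold (2.500 to 4.11) lower in obese and 2.09-fold (1.71 to 2.57) lower in lean Tregs, and Hif1an, the asparagine hydroxylase of HIF, was 9.65-fold (7.33 to 12.9) higher in obese Tregs. Of the other glycolysis enzymes 5 of 11 were higher and 4 lower in the library labelled Med23 KO than in Foxp3Cre, beside 28.6% and 34.9% of all genes. In obese against LN Tregs 11 of 16 were higher and 2 lower, beside 41.7% and 23.7%, and in lean against LN Tregs 7 of 12 and 4, beside 37.6% and 32.1%. Pgm1, phosphoglucomutase, was listed at 0 in lean Tregs against 17.4 scaled counts in LN, and Bsg, the chaperone of the lactate carriers, was 2.53-fold (2.36 to 2.72) lower in obese than in LN Tregs.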

How the data were processed

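RNA was extracted with Trizol from sorted Tregs, and libraries from 3 ug of total RNA were made with TruSeq and sequenced on a HiSeq2000, per the labels' protocols and the series' design text. Reads were aligned with TopHat2 2.0.9 and Bowtie2 2.0.6 to mm8, per the submitters' processing notes. Which program counted reads, on which annotation and strand, and how counts were scaled was not given in the sources used here. The 3 deposited tables each hold 2 libraries as scaled counts (a signal), which are whole multiples of 1 step per column within 0.01 read. Values under 1 are listed as 0. The authors' deposited log2 fold changes were used to recover the reads of members listed at 0, with 0.5 scaled counts standing in for none. The authors' deposited p-values and q-values were not used, because each compares 1 library with 1 library.

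Ratios within a table were taken on the deposited scale, those across tables after rescaling each column to a sum of 1000000 (CPM), all as log2 with a pseudocount of 1. The fold itself has no pseudocount. A gene was measured where at least 1 library was at 1 or more, and called at 2-fold. A measured gene listed at 0 in the other library was therefore always called. A gene without a row in a table was taken as 0 there. Intervals are 95% exact (Clopper-Pearson) intervals over reads, taken as the scaled count divided by its step. Because reads lack molecular identifiers, they do not count independent molecules, and intervals and the floor of 3 reads per library cover counting error only. The labels do not say that libraries stand for separate mice. Python 3.11.15, pandas 2.3.3, numpy 2.4.6, scipy 1.17.1, matplotlib 3.10.9 and BLAST+ 2.17.0 were used, and the scripts were tested on simulated data. Promoters are from RefSeq, and gene lengths, overlaps and copies from the reference annotation, neither being the authors' build. The design foresaw no test across genes. The 32 members, the pathway lists and the marker lists were chosen with earlier results of these data known. From each pathway list a gene could be named where it was among the 2 highest or 2 lowest ratios of a comparison, at 5 or more in the higher library.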

Additional observations from a re-analysis of the deposited data

Results flagged for a closer look

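For 4 members the log2 ratio to LN had opposite signs in different adipose libraries, each at least 1 in size. The difference was not tested, and all of these ratios share the 1 LN library. The 10-month ratios are in CPM, and the obese and lean ones are on the deposited scale. In CPM, Slc2a1 had 3.87 in obese against 7.84 in LN Tregs, and Bnip3 7.07 against 14.4. Both obese ratios are then short of 1 in size with the pseudocount, so these 2 reversals in obese Tregs rest on the scale. Pgam1 was at 1.07 in 10-month Foxp3Cre against -1.43 in lean Tregs. Bnip3 was at 1.23 in 10-month Foxp3Cre against -1.09 in obese and -1.82 in lean Tregs. Slc2a1 was at 2.47 in 10-month Foxp3Cre against -1.004 in obese Tregs. Ddit4 was at -1.41 in 10-month Foxp3Cre, where it was listed at 0 beside 1.65 CPM in LN, against 1.69 in lean Tregs.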

How the results depend on the processing

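With 1 library per group no replicate could be left out. No paired analysis was possible because each group holds 1 library. Alternatives were a pseudocount of 5, a minimum of 10 in at least 1 library, centring on the median of all genes, leaving out Gapdh, and another rescaling. Of the counts of members called, 58 stayed within 1.5 times of the reported one, and both exceptions concern obese against LN Tregs. Leaving out Gapdh could shift a count by at most 1, which was too little to leave this band. The band is wide, as 8 lower members after centring, against 6, lie within it. There, 9 members were higher with the minimum of 10, which tests fewer genes, and 3 were lower with both columns rescaled to CPM, against 14 and 6. Centring turned the median of that comparison to -0.094, against 0.35, so its direction rests on the scaling. Of 114 member ratios of at least 2-fold, 93 remained so with a pseudocount of 5 and 102 after centring. Neither change could turn a sign, so signs say nothing here. A pseudocount added to both values keeps the direction, and centring moved ratios by at most 0.44 on the log2 scale. Adding the listed reads of near-identical copies, an alternative chosen after seeing the data, ended 2 of 34 such calls, Eno1 in lean against LN (-0.71 on the log2 scale) and Gapdh in obese against lean Tregs (0.66). No alternative was run for the isozyme pairs. Depth limits members under about 1 scaled count, where 6 to 10 reads were the fewest listed.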

Other observations

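Genes that lead pyruvate and glucose 6-phosphate to other fates also varied. Of 11 measured genes of pyruvate entry into mitochondria, 1 was higher and 5 lower by 2-fold or more in the library labelled Med23 KO than in 10-month Foxp3Cre Tregs (median -0.78, against -0.15 over all genes), beside 28.6% and 34.9% of all genes. Pdk3 was 9.65-fold (5.92 to 16.8) and Pdha1, a pyruvate dehydrogenase subunit, 6.41-fold (4.704 to 8.94) lower. In lean Tregs 3 of 12 were higher and 5 lower than in LN, with Pdha1 listed at 0 against 30.3 scaled counts, beside 37.6% and 32.1% of all genes, and in obese Tregs 4 were higher and 4 lower, beside 41.7% and 23.7%. Of 10 pentose phosphate genes 2 were higher and 4 lower in the library labelled Med23 KO than in Foxp3Cre, and 4 were higher and 3 lower in lean than in LN Tregs, counts near the background of these comparisons. G6pdx, the entry enzyme, had 33.6 CPM in obese Tregs and was listed at 0 in lean Tregs. Taldo1, transaldolase, was 4.11-fold (3.67 to 4.62) lower in obese and 4.68-fold (4.18 to 5.26) lower in lean than in LN Tregs. Of 8 glycolysis regulators none was higher and 4 were lower in the library labelled Med23 KO than in Foxp3Cre, beside the same 28.6% and 34.9%, with Trp53 43.6-fold (23.6 to 91.3) lower, and Myc was 3.24-fold (2.91 to 3.61) lower in obese than in lean Tregs.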
